A study of Mus musculus with 6 samples.

Results

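The growth hormone (GH) and insulin-like growth factor (IGF) axis was followed through 10 genes, taken by symbol from the 20140 genes listed in the count table: *Ghr*, *Igf1*, *Igfals*, *Igfbp1*, *Igfbp2*, *Igfbp3*, *Socs2*, *Cish*, *A1bg* and *Car3*. The first 8 were chosen for their place in the axis, with earlier results of these data known. *A1bg* and *Car3* were chosen by their measured values, a strong fall in the metastatic livers of these data, so their levels are given below as a description, with no test. All 10 passed the filter on low counts.

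Bulk RNA was sequenced from 6 mouse livers on day 21, 2 per group. The sham livers (labelled control) came from mice that received no tumor cells. The premetastatic niche (PMN) livers (labelled intra-C) came from mice carrying CT26 colorectal carcinoma cells in the cecum, and the metastasis livers (labelled intra-S) from mice given CT26 cells through the spleen, so a metastasis liver can also hold tumor RNA. The labels give only the group names, and their link to these models was taken from the methods of the study, which place CT26 tumors in BALB/c mice. Age, sex and strain of the 6 animals are not given in the labels, no genetic change is named for any group, and the labels do not say whether the 2 livers of a group came from separate experiments. The replicate livers are treated as separate mice, and the p-values measure only the spread between them. *Xist*, an RNA of the inactive X chromosome in females, was between 660.3 and 1091.6 CPM in every liver. Metastasis liver 1 was the highest or the lowest of the 6 livers for 9 of the 10 genes, against at most 5 for any other liver. The 9 include *A1bg* and *Car3*, which were chosen for their fall in metastasis livers. How often this liver was extreme over all genes was not counted.

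GH from the pituitary binds its receptor on hepatocytes and activates JAK2 and then STAT5, which switches on *Igf1*, *Igfals* and the feedback inhibitors *Socs2* and *Cish*. Most IGF1 in blood is made in the liver, where it travels in a complex with IGFBP3 and the acid-labile subunit encoded by *Igfals*. IGFBP1 and IGFBP2 carry IGFs outside that complex, and *Igfbp1* is held down by insulin through FOXO1. Because GH is released in a different temporal pattern in males and females, it also sets the sex-biased genes of the rodent liver. Inflammation is known to make hepatocytes less responsive to GH, with *Socs3* as a mediator.

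Promoters from RefSeq (build GRCm38.p6, the 250 bases before the start site) were at hand for 8 of the 10 genes, with 12 start sites in all. *Socs2* and *Car3* had no entry. The letters TTCNNNGAA, the palindrome that STAT proteins such as STAT5 prefer (identical on both strands), occurred before 3 start sites of 2 genes, *Igfals* and *A1bg*, and the letters CAAAACA, one form of the FOXO element, were found on either strand only before *Igfbp1* among these genes. Over all 32851 RefSeq promoters of this length, 7.02% held the first and 5.56% the second, and no promoter of these genes held both. They are shown, 5′ to 3′ on the strand of the gene with the motif in capitals, because these are the 3 genes with a match. The *A1bg* stretch is chr15:60921271-60921520 (minus strand, motif 84 to 76 bases before the start), the *Igfals* stretch chr17:24877594-24877843 (plus strand, 236 to 228 bases before) and the *Igfbp1* stretch chr11:7197537-7197786 (plus strand, 108 to 102 bases before). A further *Igfals* start site, inside the transcript from the first, had its match 58 to 50 bases before it.
A1bg: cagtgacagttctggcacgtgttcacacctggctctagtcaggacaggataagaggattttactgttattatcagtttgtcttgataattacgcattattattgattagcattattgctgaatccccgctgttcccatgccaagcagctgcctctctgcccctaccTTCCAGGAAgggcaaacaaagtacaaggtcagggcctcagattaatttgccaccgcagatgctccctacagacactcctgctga
Igfals, first start site: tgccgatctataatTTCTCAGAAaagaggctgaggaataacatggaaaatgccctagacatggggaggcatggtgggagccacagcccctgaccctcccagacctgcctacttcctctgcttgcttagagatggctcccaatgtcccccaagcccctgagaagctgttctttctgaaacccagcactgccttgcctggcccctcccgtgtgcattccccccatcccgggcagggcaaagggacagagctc
Igfals, second start site, motif and flanks: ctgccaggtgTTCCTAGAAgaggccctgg
Igfbp1: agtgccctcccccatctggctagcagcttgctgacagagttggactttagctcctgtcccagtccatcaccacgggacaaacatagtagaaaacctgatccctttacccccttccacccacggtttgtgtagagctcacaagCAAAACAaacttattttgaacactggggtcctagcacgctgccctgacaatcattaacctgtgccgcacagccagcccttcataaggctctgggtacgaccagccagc
A match of letters is a description, and whether a factor bound there was not measured.

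Levels are given for each liver as CPM, the counts scaled to a common library total with edgeR's TMM factors, sham livers first, then PMN, then metastasis, each as liver 1 and liver 2. Levels of different genes are compared only as TPM, which are scaled by gene length. A gene was called changed at an adjusted p under 0.05 by edgeR's quasi-likelihood test, with Benjamini-Hochberg adjustment over the 16370 genes tested. Libraries held 32838321 to 43368309 counts. Where a gene has 0 counts, the true value may be as high as 3 counts, or 0.0679 to 0.0928 CPM depending on the library, a limit that covers counting error only. In whole liver, fewer cells of a type and less RNA per cell cannot be told apart.

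Of the 8 genes chosen for their place in the axis, *Igfbp1* rose and *Igfals* fell in PMN against sham livers, while *Igfbp1* and *Igfbp2* rose and *Ghr* and *Igfals* fell in metastasis against sham livers. Thus 2 of 8 were called in the first comparison, where 7.30% of all tested genes were called (4.92% higher, 2.38% lower), and 4 of 8 in the second, where 10.7% were called (6.78% higher, 3.95% lower). Both comparisons share the sham livers, and the 8 genes were listed with earlier results of these data known, so these counts are a description. Between metastasis and PMN livers none of the 8 was called, nor was any of the 16370 genes (0%); at an unadjusted p under 0.05, 1144 genes (6.99%) were higher and 1049 (6.41%) lower, and DESeq2 called 240 (1.59%) and 284 (1.88%) of 15100. Against sham livers DESeq2 called 3 of the 8 in PMN, where it called 10.4% of genes higher and 6.78% lower, and 5 of the 8 in metastasis, where it called 12.6% higher and 8.95% lower. Without sham liver 1 or without sham liver 2, no member was called in any comparison, and neither was any of the 16370 genes. By library size without TMM, the split of calls over all genes moved from 806 higher and 389 lower to 569 and 801 in PMN, and from 1110 and 646 to 838 and 1115 in metastasis livers, while the called members were the same 2 and 4.

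**Figure D1:**
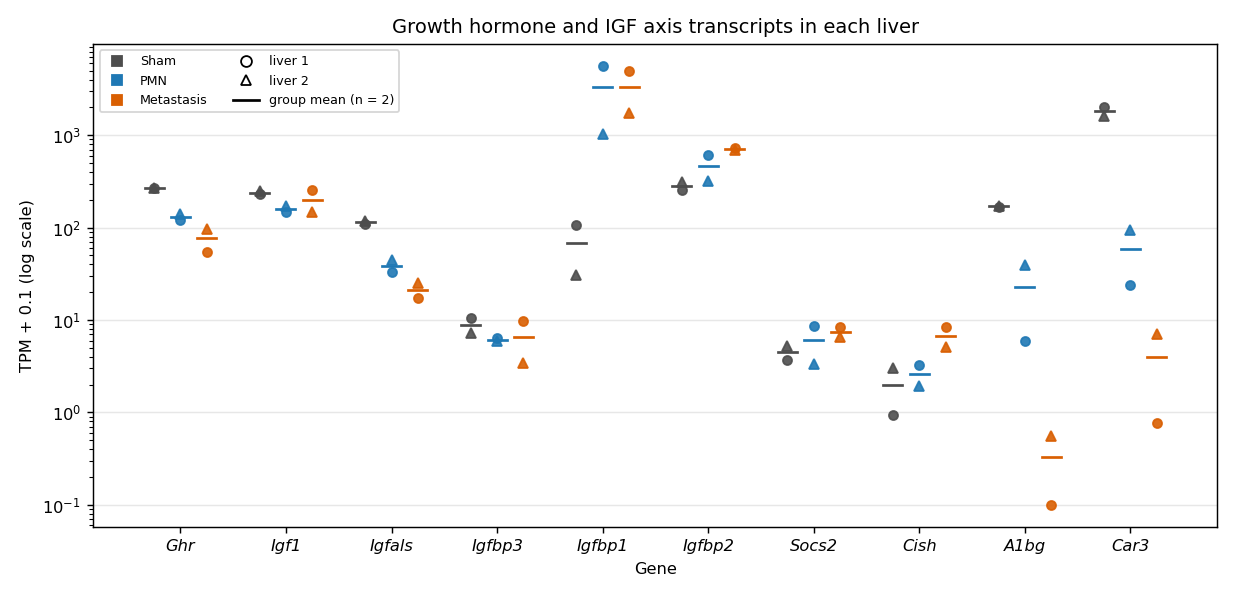
Level of the 10 genes in each liver, as TPM + 0.1 on a log scale, with circles for liver 1, triangles for liver 2 and lines for the group mean (n = 2). The PMN and metastasis livers sit below the sham livers for *Ghr*, *Igfals*, *A1bg* and *Car3* and above them for *Igfbp1* and *Igfbp2*.

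*Ghr* (15:3317755-3583352, build GRCm38.p6) encodes the GH receptor. It stood at 542.1 and 538.3 CPM in sham, 287.3 and 314.2 in PMN, and 140.2 and 232.6 in metastasis livers. No groups overlapped, and metastasis liver 1 was the lowest of the 6. The group means were 540.2 ± 2.67, 300.7 ± 19.1 and 186.4 ± 65.3 CPM (SD, n = 2), which is 1.8-fold lower in PMN and 2.9-fold lower in metastasis than in sham livers. The metastasis difference was called (log2 fold change −1.53, SE 0.28, adjusted p = 0.0253 by edgeR). The PMN difference was not (−0.84, SE 0.28, adjusted p = 0.116), although DESeq2 called it (adjusted p = 0.0478). With only the 2 groups compared, the metastasis difference was not called (−1.52, SE 0.32, adjusted p = 0.0742 by edgeR). The PMN difference was called in that setting (−0.85, SE 0.12, adjusted p = 0.00417). The metastasis call was lost without PMN liver 1 (adjusted p = 0.0728), PMN liver 2 (0.0745), sham liver 1 (0.168) or sham liver 2 (0.174), and the PMN difference became called without metastasis liver 1 (0.00417) or 2 (0.00486). Between metastasis and PMN livers the log2 fold change was −0.69 (SE 0.28, adjusted p = 0.365 by edgeR), and without metastasis liver 2 it was −1.1 with an adjusted p of 0.00668.

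*Igf1* (10:87858265-87937047), the hormone that carries much of the growth effect of GH, was not called in any comparison. It was at 898.9 and 957.3 CPM in sham, 674.8 and 740.9 in PMN, and 1246.3 and 684.6 in metastasis livers. The PMN livers lay below both sham livers, whereas metastasis liver 1 was the highest and metastasis liver 2 below both sham livers. Neither comparison with sham livers was called (−0.39, SE 0.31, adjusted p = 0.464 in PMN and 0.06, SE 0.31, adjusted p = 0.921 in metastasis, by edgeR). The PMN difference became called without metastasis liver 1 (adjusted p = 0.049), and the metastasis difference turned to −0.44 without that liver, to −0.24 by library size without TMM and to −0.3 in limma on log2(TPM + 1). The mean level in metastasis livers was 1.04 times that in sham livers as CPM and 0.839 times as TPM. *Igf1os*, an annotated gene that overlaps *Igf1*, had 1.53 and 1.36 CPM in sham, 0.942 and 0.866 in PMN, and 4.84 and 2.09 in metastasis livers.

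The 5 genes with the pattern most like *Igf1*, among 7261 genes with a mean of at least 10 CPM, were *Cwf19l2* (Pearson r = 0.996 over the 6 livers), *Hp1bp3* (0.994), *Trim26* (0.99), *Pgm1* (0.989) and *Ddx24* (0.988). They shared with *Igf1* the high value in metastasis liver 1, as in *Trim26*, at 52.4 and 56.4 CPM in sham, 29.3 and 31.9 in PMN, and 105.4 and 33.2 in metastasis livers. These values are a description over livers that share their library, depth and group.

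*Igfals* (17:24877844-24882011), whose promoter is printed above, encodes the acid-labile subunit that keeps IGF1 in the large circulating complex. It was at 120.5 and 129.0 CPM in sham, 42.0 and 54.0 in PMN, and 23.8 and 32.5 in metastasis livers. Every PMN liver was below every sham liver and every metastasis liver below every PMN liver. It fell 2.6-fold in PMN (log2 fold change −1.38, SE 0.24, adjusted p = 0.0286 by edgeR) and 4.43-fold in metastasis livers (−2.15, SE 0.25, adjusted p = 0.00818). The step between PMN and metastasis livers was −0.77 (SE 0.24), with an unadjusted p of 0.0166 and an adjusted p of 0.313 by edgeR. Without metastasis liver 2 that step was −1.01 with an adjusted p of 0.0218. The PMN call was lost without any 1 PMN or sham liver, with adjusted p-values of 0.188 and 0.127 (PMN liver 1 and 2) and 0.195 and 0.227 (sham liver 1 and 2), and the metastasis call only without sham liver 1 (0.1) or 2 (0.0961).

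As a ratio of TPM, *Igfals* per *Igf1* was 0.477 and 0.479 in sham, 0.221 and 0.259 in PMN, and 0.068 and 0.169 in metastasis livers. The ratio was nearly equal in the sham livers and lower in each of the other 4.

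*Igfbp3* (11:7206086-7215498), the third partner of that complex, is made in the liver mainly by non-parenchymal cells. It was at 18.7 and 12.9 CPM in sham, 13.1 and 11.4 in PMN, and 21.9 and 7.16 in metastasis livers. All groups overlapped, and the metastasis livers held both the highest and the lowest value. No difference was called (−0.36, SE 0.5, adjusted p = 0.688 in PMN and −0.12, SE 0.5, adjusted p = 0.896 in metastasis against sham livers, by edgeR). Without metastasis liver 1 the latter was −1.14 with an adjusted p of 0.0366. The summed CPM of 5 Kupffer cell markers was 142.9 and 139.1 in sham, 683.8 and 844.0 in PMN, and 375.3 and 790.3 in metastasis livers, with 5 and 4 of the 5 called higher, beside 4.92% and 6.78% of all genes. Of 6 endothelial markers, summing to 79.8 and 89.1, 224.8 and 240.2, and 334.4 and 199.5 CPM, 3 were called higher in PMN and 4 in metastasis livers. The part of these cells in the level of *Igfbp3* was not tested.

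*Igfbp1* (11:7197787-7202546), a binding protein that rises in fasting, low insulin and hepatic stress, had the largest difference from the sham livers among the 8 genes. It was at 71.8 and 20.6 CPM in sham, 4473.2 and 770.4 in PMN, and 4208.7 and 1387.7 in metastasis livers. Each PMN or metastasis liver was above both sham livers, but the livers of a group were far apart, with a higher-to-lower ratio of 3.49 in sham, 5.81 in PMN and 3.03 in metastasis livers. The group means were 56.7-fold higher in PMN and 60.5-fold higher in metastasis than in sham livers. Both rises were called (5.83, SE 1.17, adjusted p = 0.0382 and 5.92, SE 1.18, adjusted p = 0.0307 by edgeR). With only the 2 groups compared, the PMN rise was called (5.83, SE 1.01, adjusted p = 0.00821 by edgeR). The metastasis rise was then not called (5.94, SE 0.96, adjusted p = 0.0509). *Igfbp1* ranked 143rd and 168th from the highest among the log2 fold changes of the 16370 genes. Between metastasis and PMN livers the log2 fold change was 0.09 (SE 0.95, adjusted p = 0.972 by edgeR) and turned to −0.92 without metastasis liver 1 and to −0.68 without PMN liver 2.

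The rise of *Igfbp1* in PMN livers was 4.06 without PMN liver 1, with an adjusted p of 0.154. Without PMN liver 2 it was 6.62 (adjusted p = 0.0818), and without sham liver 1 or 2 it was 6.99 (0.186) or 5.19 (0.247). The rise in metastasis livers lost its call without PMN liver 2 (adjusted p = 0.0514), sham liver 1 (0.144) or sham liver 2 (0.185), at log2 fold changes of 5.94, 7.09 and 5.28. It was 4.91 without metastasis liver 1 (adjusted p = 0.0224 by edgeR) and 6.51 without metastasis liver 2 (0.00619), and was called in both.

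The 5 genes most like *Igfbp1* by the same measure were *Chac1* (r = 0.997), *Fosl2* (0.996), *Dmxl1* (0.991), *Mdm2* (0.987) and *Enpp2* (0.987). *Chac1*, a glutathione-degrading enzyme induced by ATF4, was at 2.66 and 1.27 CPM in sham, 19.5 and 9.59 in PMN, and 17.8 and 10.8 in metastasis livers. *Fosl2*, a subunit of the AP-1 transcription factor, was at 4.51 and 2.99, 54.4 and 18.7, and 52.7 and 24.7 CPM. Like *Igfbp1*, both were highest in liver 1 of each group.

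*Igfbp2* (1:72824480-72852474), the other binding protein secreted by hepatocytes outside the ternary complex, was at 161.2 and 198.8 CPM in sham, 462.0 and 227.2 in PMN, and 594.8 and 522.8 in metastasis livers. The groups did not overlap, and PMN liver 2 was closest to the sham livers. It rose 3.1-fold in metastasis livers (1.63, SE 0.36, adjusted p = 0.0391 by edgeR), and its 1.91-fold difference in PMN livers was not called (0.94, SE 0.35, adjusted p = 0.154). The PMN log2 fold change was 0.34 without PMN liver 1 and 1.38 without PMN liver 2. The metastasis call was lost without PMN liver 2, sham liver 1 or sham liver 2, at log2 fold changes of 1.65, 1.49 and 1.79. It was also lost with only the 2 groups compared (1.65, SE 0.26, adjusted p = 0.0505 by edgeR). In limma on log2(TPM + 1) and log2(TPM + 0.1) the adjusted p was 0.0531 and 0.0511.

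**Figure D2:**
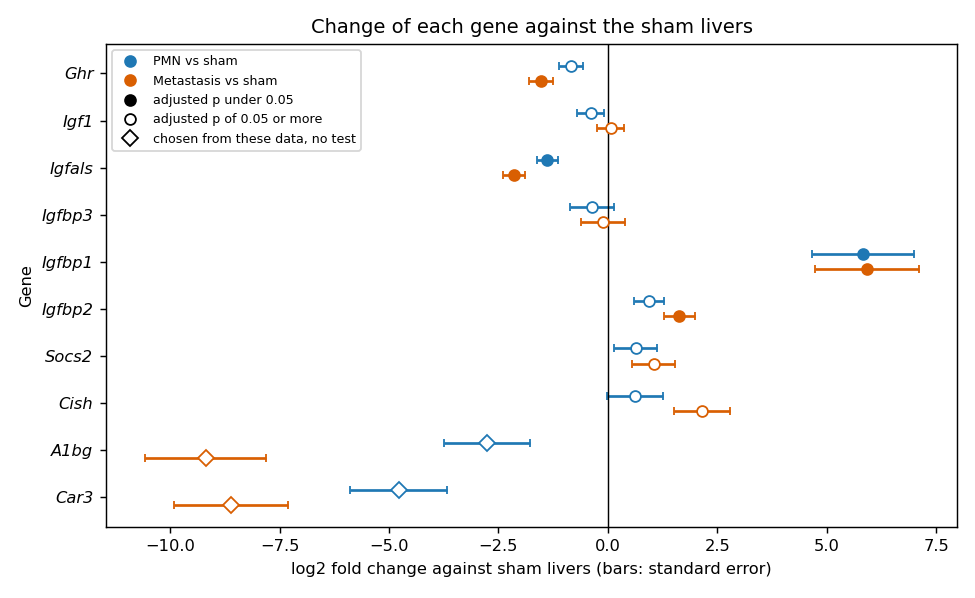
Log2 fold change of each gene against the sham livers (points) with its standard error (bars), for PMN and metastasis livers. Filled points passed an adjusted p of 0.05 and diamonds mark *A1bg* and *Car3*, which were not tested; *Igfals* and *Igfbp1* are filled in both comparisons.

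These changes altered the mixture of IGF binding protein transcripts. *Igfbp1* made up 5.79% and 1.49% of the summed TPM of *Igfbp1* to *Igfbp7* in sham livers, 77.2% and 41.6% in PMN, and 75.4% and 49.2% in metastasis livers. *Igfbp4*, an abundant IGF-inhibiting binding protein, made up 75.2% and 78.8%, 13.0% and 41.4%, and 11.3% and 27.4%. The sum itself was 1838.3 and 2047.3 TPM in sham, 7283.9 and 2486.6 in PMN, and 6493.2 and 3515.6 in metastasis livers. *Igfbp4* itself, at 1597.1 and 1869.2 CPM in sham, 1292.8 and 1311.9 in PMN, and 1076.2 and 1320.2 in metastasis livers, was not called (adjusted p = 0.285 and 0.165 by edgeR). TPM of *Igfbp1* per TPM of *Igf1* was 0.458 and 0.123 in sham, 38.0 and 5.96 in PMN, and 19.4 and 11.6 in metastasis livers.

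**Figure D3:**
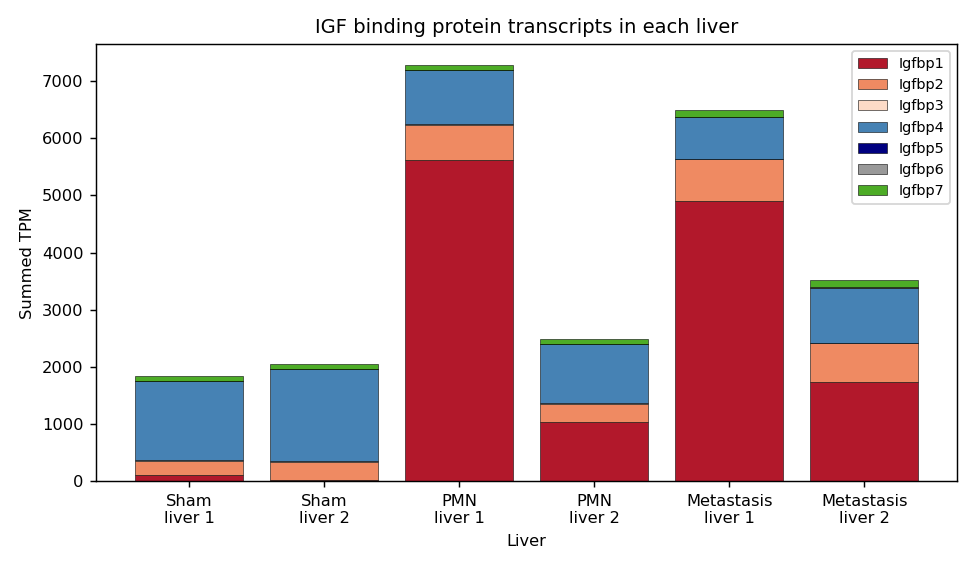
Summed TPM of *Igfbp1* to *Igfbp7* in each liver, with 1 bar per liver and 1 color per gene. *Igfbp4* is the largest segment in both sham livers and *Igfbp1* the largest in the PMN and metastasis livers, by a small margin in PMN liver 2 (41.6% against 41.4%).

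*Socs2* and *Cish*, which GH induces through STAT5 and which then dampen its receptor, were not called in either direction. *Socs2* (10:95383903-95417321) was at 18.9 and 27.5 CPM in sham, 53.5 and 18.9 in PMN, and 56.0 and 40.3 in metastasis livers. The metastasis livers were above both sham livers and the PMN livers overlapped them. Its log2 fold changes were 0.64 (SE 0.49, adjusted p = 0.442 by edgeR) and 1.05 (SE 0.49, adjusted p = 0.203). *Cish* (9:107296659-107302784) was low, at 1.6 and 5.57 CPM in sham, 7.16 and 3.87 in PMN, and 20.4 and 11.2 in metastasis livers. Both metastasis livers were above the other 4, with a 4.41-fold higher mean than in sham livers that was not called (2.14, SE 0.64, adjusted p = 0.0838 by edgeR). DESeq2 called it (adjusted p = 0.0078), as did edgeR without metastasis liver 2 (0.0269). Its log2 fold change was 1.5 without sham liver 1 (adjusted p = 0.291 by edgeR), 3.3 without sham liver 2 (0.118) and 1.64 without metastasis liver 1 (0.139). In PMN livers the log2 fold change of *Cish* was 0.62 (SE 0.63, adjusted p = 0.573 by edgeR).

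*A1bg* and *Car3* are described without a test. *A1bg* (15:60917589-60921270), the alpha-1B-glycoprotein secreted by hepatocytes, depends in mouse liver on the female GH pattern. It had 135.2 and 140.2 CPM in sham, 5.63 and 35.2 in PMN, and 0.0 and 0.442 in metastasis livers. Metastasis liver 1 had 0 counts and metastasis liver 2 had 18, against 5486 and 6194 in the sham livers. Against the sham mean, metastasis liver 1 was at least 1573.7-fold lower (with 3 counts in that library as the floor) and metastasis liver 2 was 311.8-fold lower, while the PMN livers were 24.5-fold and 3.91-fold lower.

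*Car3* (3:14863538-14872381), a cytosolic carbonic anhydrase abundant in hepatocytes, adipocytes and slow muscle, was the member with the highest TPM in the sham livers. It had 1363.9 and 1108.8 CPM in sham, 19.3 and 70.6 in PMN, and 0.583 and 5.69 in metastasis livers, or 20 and 232 counts in the last. The PMN livers were 64.0-fold and 17.5-fold below the sham mean and the metastasis livers 2119.7-fold and 217.2-fold. The estimated log2 fold change of *Car3* in metastasis livers, −8.61, was −7.76 without metastasis liver 1 and −11.04 without metastasis liver 2. That of *A1bg*, −9.19, includes a liver at 0 counts, so it is no bound. It was −8.27 without that liver and −15.36 without metastasis liver 2, which leaves only the liver at 0 counts. Within each group liver 1 was lower than liver 2 for both genes in the PMN and metastasis groups. *Cidec*, the only 1 of 5 adipose markers listed, was between 0.789 and 4.08 CPM, and *Mylpf*, the only 1 of 7 muscle markers listed, was at most 0.153 CPM.

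None of 6 hepatocyte markers was called lower, where 2.38% of all genes were called lower in PMN and 3.95% in metastasis livers. *Alb* made up most of the sum over 6 markers, which stood at 108984.6 and 103383.6 CPM in sham, 142429.6 and 104307.6 in PMN, and 174805.2 and 130993.7 in metastasis livers, with 1 called higher in PMN livers (*Apob*). *Ttr*, the transthyretin gene, was at 5097.1 and 5365.1 CPM in sham, 3119.5 and 2676.9 in PMN, and 5095.8 and 4450.2 in metastasis livers, and its PMN difference was not called (−0.85, SE 0.22, adjusted p = 0.0706 by edgeR). *Asgr1*, a hepatocyte-restricted receptor subunit, was at 551.6 and 562.2, 457.5 and 464.8, and 628.1 and 576.8 CPM. Over all genes, 4.92% were called higher in PMN and 6.78% in metastasis livers. Neutrophil markers, 6 of 6 called higher in both comparisons, summed to 3.67 and 4.62 in sham, 214.9 and 427.7 in PMN, and 721.8 and 324.9 in metastasis livers. Macrophage markers, 4 of 5 called higher in both, summed to 54.6 and 60.1, 249.4 and 362.1, and 248.5 and 360.8 CPM. Proliferation genes, 1 of 5 called higher in PMN and 4 of 5 in metastasis livers, summed to 14.3 and 8.35, 24.9 and 32.5, and 74.9 and 62.3 CPM, and stellate and fibroblast markers, 2 of 7 called higher in metastasis livers, to 266.7 and 240.8, 282.9 and 269.2, and 405.1 and 373.7 CPM. Cholangiocyte markers summed to 15.2 and 19.5, 65.4 and 98.5, and 23.6 and 184.7 CPM, mostly *Spp1*, which macrophages also make. Of these 5 markers none was called in PMN livers and only *Sox9* was called higher in metastasis livers (2.12, SE 0.51, adjusted p = 0.0491 by edgeR). Lymphocyte markers summed to 3.38 and 3.96, 2.14 and 2.6, and 3.62 and 5.25 CPM, and none of 6 was called. The part of any of these cells, or of tumor cells, in the members' levels was not tested.

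Downstream of the receptor, 12 of 13 listed signaling genes were tested. *Stat3*, *Socs3* and *Ptpn1* rose in PMN livers and *Stat3* and *Socs3* in metastasis livers, and none fell. These are 25.0% and 16.7% of the list, beside 4.92% and 6.78% of all genes called higher. The median log2 fold change of the list was 0.51 and 0.43, against 0.01 and 0.04 over all genes tested. *Stat3*, which serves interleukin-6 more than GH, was at 67.0 and 62.4 CPM in sham, 229.2 and 226.4 in PMN, and 133.6 and 130.2 in metastasis livers. It rose by 1.82 (SE 0.19, adjusted p = 0.00785) and 1.03 (SE 0.18, adjusted p = 0.0236) on the log2 scale by edgeR, with the livers of each group close together. *Socs3*, its target and an inhibitor of cytokine and GH receptors, was at 1.4 and 2.22, 36.1 and 24.1, and 9.86 and 31.0 CPM, with rises of 4.05 (SE 0.61, adjusted p = 0.0195) and 3.49 (SE 0.6, adjusted p = 0.0214). *Ptpn1*, a phosphatase that acts on JAK2 and the insulin receptor, rose in PMN livers (1.44, SE 0.3, adjusted p = 0.0406 by edgeR).

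The kinase and transcription factors of GH signaling itself were not called. *Jak2* was at 12.7 and 13.9 CPM in sham, 20.5 and 26.4 in PMN, and 16.1 and 19.2 in metastasis livers (0.82, adjusted p = 0.0755 and 0.41, adjusted p = 0.265 by edgeR). *Stat5b*, the main hepatic STAT5, was at 36.0 and 35.2, 45.7 and 27.9, and 69.3 and 28.0 CPM. *Stat5a* was at 11.6 and 9.46, 2.06 and 5.69, and 27.2 and 4.32 CPM. For both *Stat5* genes metastasis liver 1 was the highest of the 6 and metastasis liver 2 was below the sham livers. *Socs1* was too low to test, at 0 to 0.294 CPM.

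**Figure D4:**
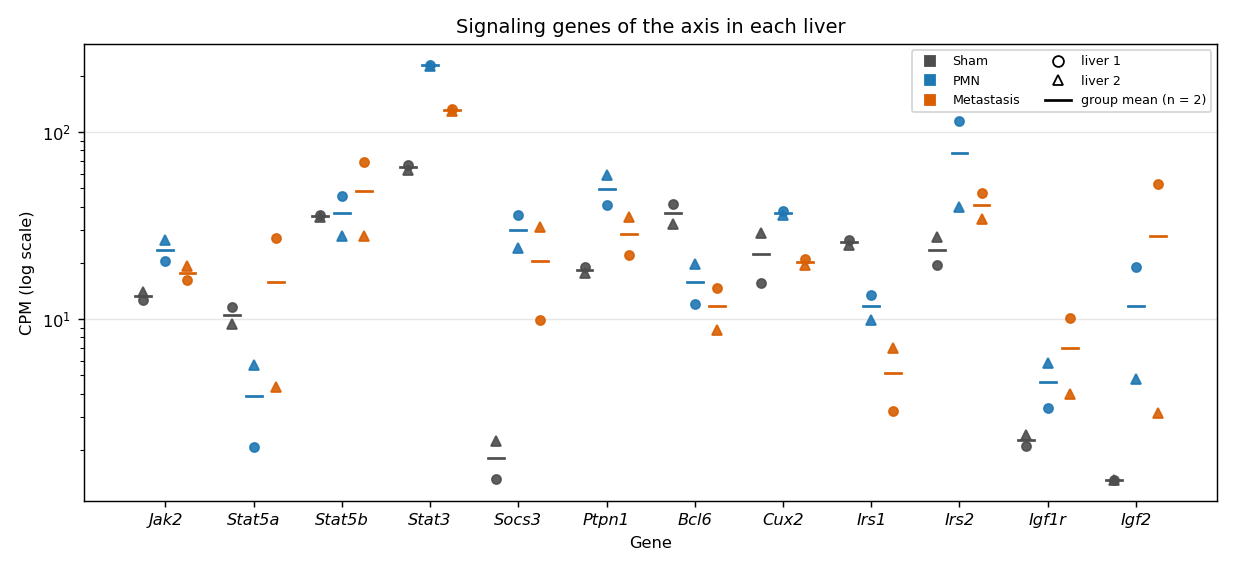
CPM on a log scale of 12 genes of GH, insulin and IGF signaling in each liver, with circles for liver 1, triangles for liver 2 and lines for the group mean (n = 2). *Stat3* and *Socs3* are higher in every PMN and metastasis liver than in the sham livers, while *Stat5a*, *Stat5b* and *Igf2* are set apart by metastasis liver 1.

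Of 16 tested genes of the IGF system outside the 10 members, none was called in PMN livers, and *Igfbp7* rose and *Irs1* fell in metastasis livers. That is 12.5% of the list called in metastasis livers, close to the 10.7% of all genes, and 0% in PMN livers beside 7.30%. The median log2 fold change was 0.24 and 0.87, beside 0.01 and 0.04 over all genes. *Igfbp7*, an IGFBP-related protein of vessels and stroma, was at 43.8 and 42.2 CPM in sham, 56.0 and 56.6 in PMN, and 85.2 and 80.3 in metastasis livers (0.94, SE 0.18, adjusted p = 0.0269 by edgeR). *Irs1*, an adaptor of the insulin and IGF1 receptors, was at 26.6 and 25.0, 13.5 and 9.9, and 3.24 and 7.02 CPM (−2.33, SE 0.39, adjusted p = 0.0204 by edgeR). *Igf2*, the fetal growth factor, was at 1.38 and 1.38 CPM in sham, 18.9 and 4.76 in PMN, and 52.7 and 3.16 in metastasis livers, and was not called (adjusted p = 0.179 and 0.0866). *Igf1r*, which adult hepatocytes barely express, was at 2.09 and 2.4, 3.34 and 5.85, and 10.1 and 4.0 CPM (adjusted p = 0.251 and 0.0902). *Igf2r*, which removes IGF2, was at 30.4 and 32.1, 40.2 and 37.8, and 23.5 and 26.7 CPM (adjusted p = 0.306 and 0.288). *Igfbp5* was at 11.4 and 13.3, 8.38 and 0.99, and 6.12 and 2.67 CPM, and *Igfbp6* was at most 4.12 CPM in every liver.

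Among the genes that GH keeps at sex-biased levels, 2 of 8 tested male-biased genes fell in PMN livers (25.0%) and 5 of 8 in metastasis livers (62.5%). Of 21 tested female-biased genes, 4 (19.0%) and 7 (33.3%) fell. Over all genes tested, 2.38% and 3.95% were called lower. The other genes of both lists were not called, and those with a fold change above 0 in PMN livers included *Slco1a1* (1.16), *Cux2* (0.73) and *Slc22a26* (0.57). The median log2 fold changes were −1.09 and −2.27 for the male-biased and −1.27 and −1.46 for the female-biased genes, beside 0.01 and 0.04 over all genes. *Mup3*, a major urinary protein, was at 2989.8 and 2653.6 CPM in sham, 165.2 and 331.3 in PMN, and 91.5 and 170.7 in metastasis livers (−3.51, SE 0.46, adjusted p = 0.0148 and −4.43, SE 0.48, adjusted p = 0.00733 by edgeR). *Selenbp2*, a selenium-binding protein, fell by 1.2 and 1.94 on the log2 scale. *Mup20* (−2.6), the bile acid enzyme *Cyp7b1* (−2.86) and *Cyp2d9* (−1.01), a P450, fell in metastasis livers.

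Among the female-biased genes, *Hao2*, a peroxisomal hydroxy-acid oxidase, was at 170.6 and 175.8 CPM in sham, 20.4 and 20.6 in PMN, and 14.5 and 15.2 in metastasis livers (−3.08, SE 0.19, adjusted p = 0.00543 and −3.54, SE 0.2, adjusted p = 0.00443 by edgeR). *Acot3*, a peroxisomal acyl-CoA thioesterase, was at 155.5 and 159.7, 0.357 and 6.96, and 0.758 and 0.761 CPM. *Cyp3a16* (−1.92 and −2.92) and the sulfotransferase *Sult2a1* (−2.05 and −2.58) also fell in both comparisons. *Cyp2b13*, a P450, fell in metastasis livers (−4.15, SE 0.95, adjusted p = 0.0432 by edgeR). *Prlr*, the prolactin receptor, was at 287.0 and 329.4, 159.9 and 164.0, and 180.7 and 114.2 CPM and was not called (adjusted p = 0.0871 and 0.0541 by edgeR). *Cyp17a1*, a steroid-making P450, was not called (2.31 in metastasis livers, SE 1.1, adjusted p = 0.213 by edgeR) and was at 184.0 CPM in metastasis liver 1 and 10.2 in metastasis liver 2, against 15.7 and 23.4 in sham livers. Reads of *Mup*, *Cyp2b*, *Cyp3a* and *Sult2a* genes may be shared with close copies, so their split between copies is uncertain.

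**Figure D5:**
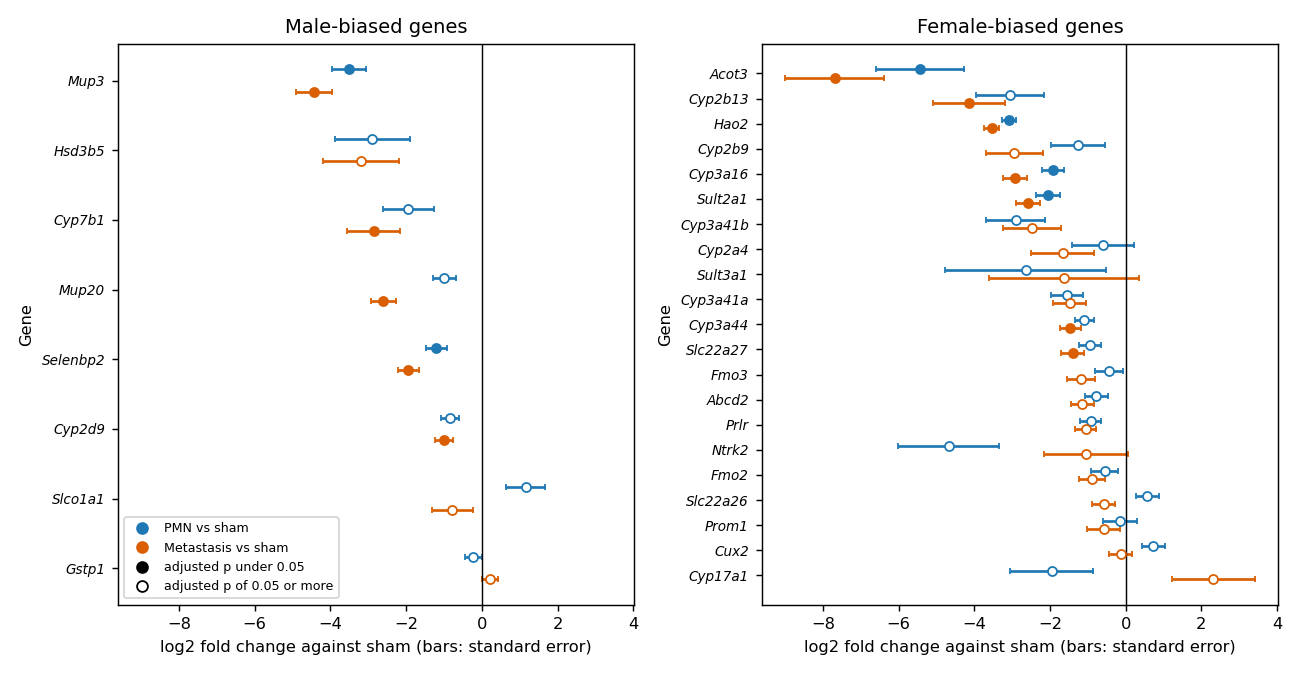
Log2 fold change against the sham livers (points) with its standard error (bars) of male-biased genes (left, 8 tested) and female-biased genes (right, 21 tested); filled points passed an adjusted p of 0.05. All filled points lie below 0, 2 and 4 in PMN and 5 and 7 in metastasis livers.

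Of 7 transcription factors that relay the GH pattern or hepatocyte identity, none was called in PMN livers and only *Bcl6* fell in metastasis livers (median −0.64 and −1.13). These are 0% and 14.3% of the list, beside 7.30% and 10.7% of all genes called in either direction. *Bcl6*, a repressor that opposes STAT5 and is male-biased, was at 41.2 and 32.3 CPM in sham, 12.0 and 19.6 in PMN, and 14.7 and 8.76 in metastasis livers (−1.65, SE 0.35, adjusted p = 0.036 by edgeR). *Cux2*, the female-specific repressor, was between 15.6 and 37.8 CPM, highest in the PMN livers, and was not called (adjusted p = 0.178 and 0.801). Of 12 genes of insulin action, fasting and stress, none was called in PMN livers and *Ppara*, the fasting regulator of fat oxidation, fell in metastasis livers (243.2 and 225.8 CPM in sham against 91.2 and 88.6, −1.38, SE 0.27, adjusted p = 0.0301 by edgeR). Their medians were 0.17 and −0.05, and 0% and 8.33% of them were called, beside the same 7.30% and 10.7% of all genes. Insulin represses *Pck1*, *G6pc* and *Ppargc1a*, all genes of gluconeogenesis, as it does *Igfbp1*. In PMN livers their log2 fold changes were 0.21 (adjusted p = 0.735 by edgeR), 1.39 (0.177) and 1.48 (0.105), and in metastasis livers −0.49 (0.373), −0.15 (0.886) and 0.87 (0.257). For each of the 3, PMN liver 1 was the highest of the 6 livers. In all, 9 of 75 tested genes of these 6 lists were called in PMN livers (3 higher, 6 lower), or 4% higher and 8% lower beside 4.92% and 2.38% of all genes. In metastasis livers 18 of 75 were called (3 higher, 15 lower), or 4% higher and 20.0% lower beside 6.78% and 3.95%. None was called without sham liver 1 or without sham liver 2, as for all genes. In PMN livers the count was also 0, as for all genes, without PMN liver 1 or PMN liver 2. It was 42 (56.0%) without metastasis liver 1 and 41 (54.7%) without metastasis liver 2, where 28.8% and 28.4% of all genes were called. In metastasis livers it was 8 without PMN liver 1 (2.86% of all genes called), 7 without PMN liver 2 (2.49%), 31 without metastasis liver 1 (17.6%) and 43 without metastasis liver 2 (34.9%).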

How the data were processed

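Poly(A) RNA of 6 whole livers was sequenced. Per the labels and methods, the authors aligned the reads with HISAT2 2.1.0 to mm10, counted unique exon reads with featureCounts (Subread 2.0.6) and deposited raw counts, and also deposited TPM calculated from those counts and gene lengths. The annotation and whether counting used strand are not given in the sources used here, so reads of *Ghr*, *Igf1*, *Igfals*, *Socs2* and *Car3* may be mixed with an overlapping annotated gene.

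Counts were tested with edgeR 4.0.16 (R 4.3.3): TMM, filterByExpr with a minimum of 10 counts, 1 quasi-likelihood fit over the 6 livers and Benjamini-Hochberg adjustment over 16370 genes (threshold 0.05). The procedure was tested on simulated data. Coordinates are from RefSeq. Tables and motif searches used Python 3.11.15. Alternatives were DESeq2 1.42.0, limma 3.58.1 on log2(TPM + 1) and log2(TPM + 0.1), other filters and scalings, a replicate block, only the 2 groups compared, a robust spread and each liver left out. Where an arm was left with 1 liver, it was assumed to vary like the other groups.

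The members and lists were chosen with earlier results of these data known. Named were all members, the core GH and IGF genes, up to 5 called genes per list and direction with the largest fold change, and the 5 genes correlating best with *Igf1* and *Igfbp1*. Further genes named were chosen after their values were seen: *Cyp17a1*, *Pck1*, *G6pc*, *Ppargc1a*, *Slco1a1*, *Slc22a26*, *Ttr*, *Alb*, *Asgr1*, *Apob*, *Sox9*, *Spp1*, *Cidec*, *Mylpf* and *Xist*. The other experiments of the study were not analysed here.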

Additional observations from a re-analysis of the deposited data

How the results depend on the processing

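Of the 8 tested members, the number called in PMN against sham livers was 2 and became 3 with DESeq2, 4 with only the 2 groups compared and 0 to 4 with a liver left out. In metastasis against sham livers it was 4 and became 5 with DESeq2, 3 in limma on log2(TPM + 1) or log2(TPM + 0.1), 1 with only the 2 groups compared and 0 to 5 with a liver left out. Between metastasis and PMN livers it was 0, and 0 to 3 with a liver left out (3 without metastasis liver 2: *Ghr*, *Igf1* and *Igfals*). Of the 75 pathway genes tested, the number called was 9 in PMN livers and became 29 with DESeq2, 43 with only the 2 groups compared and 0 to 42 with a liver left out. In metastasis livers it was 18 and became 33 with DESeq2, 7 with only the 2 groups compared and 0 to 43 with a liver left out, and between metastasis and PMN livers it was 0, 10 with DESeq2 and 0 to 29 with a liver left out. Over all genes, 1195 were called in PMN livers and became 2819 with DESeq2, 4725 with only the 2 groups compared and 0 to 4708 with a liver left out. In metastasis livers these were 1756, 3530, 390 and 0 to 5717, and 2238 (685 higher, 1553 lower) and 2280 (804 higher, 1476 lower) in the limma fits on log2(TPM + 1) and log2(TPM + 0.1), and between metastasis and PMN livers 0, 524, 0 and 0 to 2794. The cause was not tested.

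With the replicate number as a block, 2, 4 and 0 members and 12, 22 and 0 pathway genes were called in the 3 comparisons, beside 932 (5.69%), 1507 (9.21%) and 0 of all genes, against 1195, 1756 and 0 without the block, and the member calls did not change. Differences between liver 1 and liver 2 correlated across 16370 genes by only -0.032 to 0.0827 between groups. A correlation over all genes cannot exclude an effect of the number shared by some genes. With the block, the SE of *Igfbp1* against sham livers fell from 1.17 to 0.37 in PMN and from 1.18 to 0.37 in metastasis livers. Whether livers of the same number belong together was not tested.

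Some uncalled directions turned. In metastasis against sham livers, *Igf1* was -0.24 by library size, -0.3 in both limma fits and -0.44 to 0.43 with a liver left out, and *Igfbp3* was -1.14 to 0.47. Against PMN livers, *Igfbp3* was -0.04 and -0.07 in limma on log2(TPM + 1) and log2(TPM + 0.1). With a liver left out, it was -0.78 to 0.83, *Igf1* -0.05 to 0.82, *Igfbp1* -0.92 to 1.86 and *Socs2* -0.16 to 1.35. In PMN against sham livers, *Socs2* was -0.29 to 1.23 and *Cish* -0.01 to 1.78. The level of *Igf1* relative to sham livers was 0.839 as TPM and 1.04 as CPM in metastasis livers. Library size moved the median of all genes by -0.26 in PMN and -0.27 in metastasis livers.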
